A study of Oryza sativa with 10 samples.

Results

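The transcriptome of the rice endosperm was set against that of the flag leaf under chemical fertilizer, using 5 of the 10 libraries of the series: 2 of endosperm and 3 of flag leaf. The libraries were chosen by their labels for tissue and fertilizer, and no measured value entered the choice. All 5 came from wild-type plants of Oryza sativa cultivar Nijinokirameki, grown in a paddy field in 2024 and sampled 5 days after flowering. All the plants had received a basal chemical dressing: 56 kg/ha of N, 176 kg/ha of PO4 and again 56 kg/ha of K. Each endosperm replicate pooled spikelets from several panicles of a single plant; the husk was taken off and the endosperm was separated from the embryo while frozen. The labels do not say whether the flag leaf replicates came from separate plants, so the p-values measure the spread between these samples, which may be technical. Poly(A) RNA was sequenced from directional libraries, and the deposited values were counts of unique exon reads per gene at 37727 loci. The comparison asks what a young storage organ expresses that the leaf feeding it does not, and what the tissues have in common.

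The flag leaf is the uppermost leaf of a rice shoot and a main source of the sucrose that reaches the filling grain. In a leaf, Rubisco fixes carbon, light-harvesting proteins feed the photosystems, and starch is held only for a while in the chloroplast. The cereal endosperm is a sink: sucrose synthase and invertases cleave the imported sucrose, ADP-glucose is made largely in the cytosol and carried into the amyloplast by the BT1 transporter, and starch synthases, branching enzymes and debranching enzymes build the granule. Glutelins and prolamins, the storage proteins of rice, are made on the endoplasmic reticulum and kept in protein bodies.

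The endosperm libraries held 19173953 and 12200510 counted reads, and the flag leaf libraries held 20247748, 18540688 and 25827356. Levels are given as CPM, the share of a library's counted reads on the usual CPM scale, adjusted by the trimmed mean of M values (TMM); gene lengths were not used, so a level is a share of reads and not a number of transcripts. A gene was called higher or lower in the endosperm where edgeR's test against a 2-fold change gave an adjusted p under 0.05, and each change is the log2 fold change of endosperm over flag leaf with its standard error. Where a tissue had only a few reads, that standard error is smaller than the counting error of those reads and overstates the precision. The test was made on 24316 genes. It called 7056 of them higher in the endosperm (29.0%) and 6061 lower (24.9%), and the median log2 fold change was 0.10. The test without the 2-fold threshold called 20554 genes (84.5%), 10867 of them higher (44.7%) and 9687 lower (39.8%). The correlation of log2 levels was at most 0.56 between libraries of different tissues, and at least 0.99 between libraries of the same tissue. A fall in a bulk sample can mean fewer cells of a type or less RNA per cell, and these cannot be told apart. The tissues were deposited as separate tables, so any difference in handling between the tables cannot be told apart from the tissue.

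Marker genes were read first as a check of the labels. The 13 starchy endosperm markers summed to 69665 and 58519 CPM in the endosperm libraries, against 185.5, 190.7 and 204.8 CPM in the flag leaf libraries. The 37 leaf mesophyll markers summed to 6712 and 5044 CPM in the endosperm, against 98572, 95231 and 93108 CPM in the flag leaf. Both labels were therefore borne out, and the groups did not overlap in either sum. The endosperm libraries also held markers of other grain cell types than the starchy endosperm. The 8 aleurone and embryo markers summed to 918.2 and 983.8 CPM in the endosperm and to at most 0.0553 CPM in a flag leaf library, and of these only OSH1, a shoot meristem homeobox gene, had no endosperm read. The 6 markers of nucellus and pericarp, the maternal tissues around the endosperm, summed to 1883 and 1727 CPM in the endosperm, against 69.9, 67.9 and 71.5 CPM in the flag leaf. Among them MADS29, needed for the breakdown of the nucellus, stood at 75.6 and 67.5 CPM in the endosperm with no read in the flag leaf, whereas SWEET14 had no endosperm read and 2.87, 3.74 and 2.96 CPM in the flag leaf. SUT1, a sucrose transporter also active in leaves, made up 67.0, 64.0 and 68.6 CPM of the flag leaf sums. The sum of the 13 wax and epidermis genes went against the leaf in their name. It was 451.7 and 464.3 CPM in the endosperm and 239.3, 222.0 and 238.3 CPM in the flag leaf. By gene, 11 had a positive change, while GL1-11 (-0.33) and OsGL1-9 (-0.57) had a negative change and stood within 2-fold. GL1-11 and OsGL1-10, the most abundant in the endosperm, are annotated as similar to sterol oxidases. How much of the endosperm values below came from the aleurone, the embryo or the maternal tissues was not tested.

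**Figure D1:**
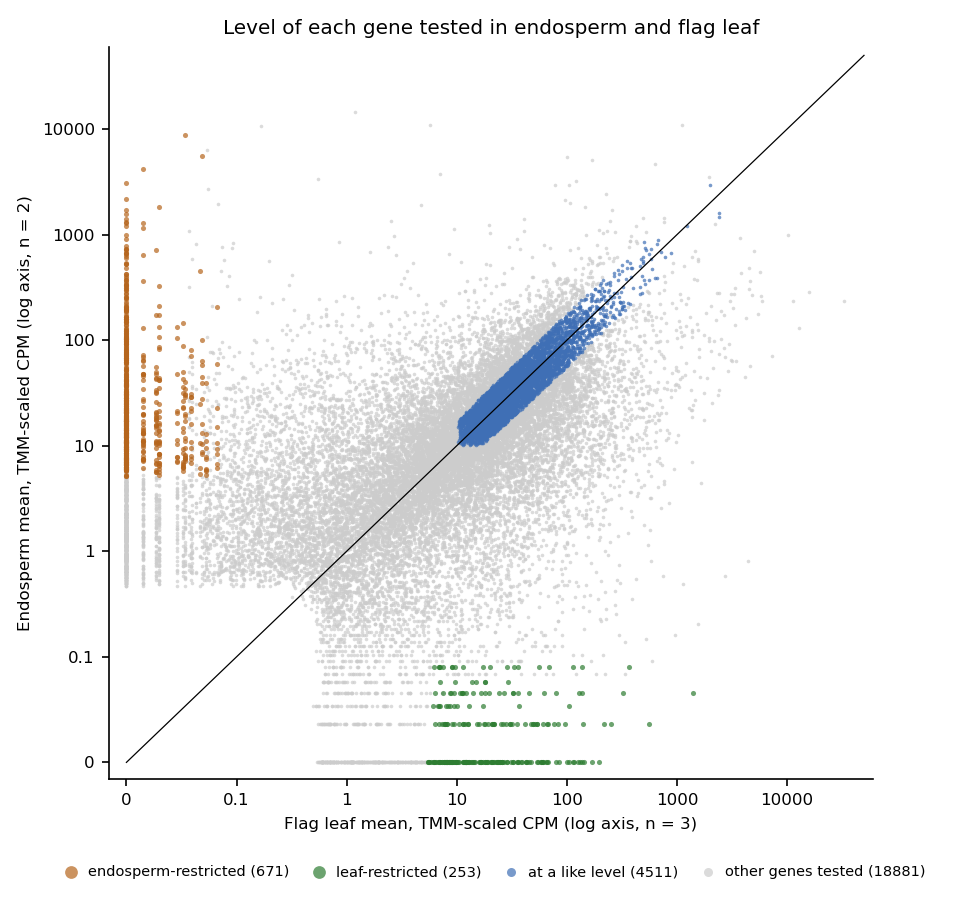
Mean TMM-scaled CPM in endosperm (vertical axis, 2 libraries) against flag leaf (horizontal axis, 3 libraries) for the 24316 genes tested, on log axes with 0 drawn at the lower end; the line marks equal levels. The 671 endosperm-restricted genes line the left edge, the 253 leaf-restricted genes line the lower edge, and the 4511 genes at a like level lie along the line.

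The most abundant transcripts of the endosperm encoded storage proteins and starch enzymes. The 10 genes with most reads were GLUA1, GLUA2, GLUA3, GLUB2 and GLUC, which encode glutelins, the globulin gene GLB1, the branching enzyme genes BEIIb and BEI, the pyruvate orthophosphate dikinase gene PPDKB and the glycine-rich RNA-binding protein gene GRP3. Together they took 10.3% and 9.01% of endosperm reads, against 0.164%, 0.192% and 0.188% of flag leaf reads. All 10 were called higher in the endosperm, a direction favoured by choosing them for their endosperm level. GLUA1 (Os01g0762500) had 15313 and 13930.2 CPM in the endosperm, against 1.33, 1.31 and 0.943 CPM in the flag leaf (log2 fold change 13.60 ± 0.21, adjusted p = 8.42e-17). PPDKB, whose enzyme interconverts pyruvate and phosphoenolpyruvate, had 12611 and 9234 CPM in the endosperm, against 981, 1144 and 1184 CPM in the flag leaf (3.31 ± 0.15, adjusted p = 9.85e-11). It was the only one of the 10 among the 100 most abundant genes of the leaf as well. The flag leaf levels of the 10 ran from almost no read for GLUB2, with 2 reads over the 3 libraries, to 981, 1144 and 1184 CPM for PPDKB.

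The 10 genes with most reads in the flag leaf served photosynthesis and photorespiration, apart from a metallothionein. RCA, the activase that keeps Rubisco working, had 266 and 209 CPM in the endosperm, against 33871, 31149 and 33076 CPM in the flag leaf (-7.10 ± 0.22, adjusted p = 7.78e-14). The metallothionein-like gene MTI3A had 120.2 and 142 CPM in the endosperm, against 11926, 12737 and 14021 CPM in the flag leaf (-6.62 ± 0.19, adjusted p = 3.17e-14). All 10 were called lower in the endosperm, a direction favoured by choosing them for their flag leaf level. They still held 0.386% and 0.326% of endosperm reads. The other 8 were the chloroplast aldolase ALDP (-5.78), the photosystem II protein OsPsbR3 (-5.61), the carbonic anhydrase BETACA1 (-6.69), the serine hydroxymethyltransferase SHMT1 (-4.65), the light-harvesting proteins CAB1R (-3.36), LHCA3 (-4.47) and CP29 (-3.67), and the ferredoxin-dependent glutamate synthase Fd-GOGAT (-4.94), each with its log2 fold change.

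Reads were concentrated to a like degree at the very top. The 10 leading genes of each library took 10.3% and 9.04% of reads in the endosperm, against 10.2% in each flag leaf library. Below that, the leaf was the more concentrated tissue. The most abundant genes that added up to 50% of the reads numbered 976 and 1124 in the endosperm libraries, against 654, 654 and 675 in the flag leaf libraries. Of the 100 most abundant genes of the endosperm, 76 were called higher there, 3 lower, and 11 stood at a like level. Of the 100 most abundant genes of the flag leaf, 92 were called lower in the endosperm and 1 higher. Among all genes tested, 29.0% were called higher, 24.9% lower and 18.6% stood at a like level. Choosing genes for a high level in a tissue favours calls towards that tissue, so these counts were partly set by the choice.

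**Figure D2:**
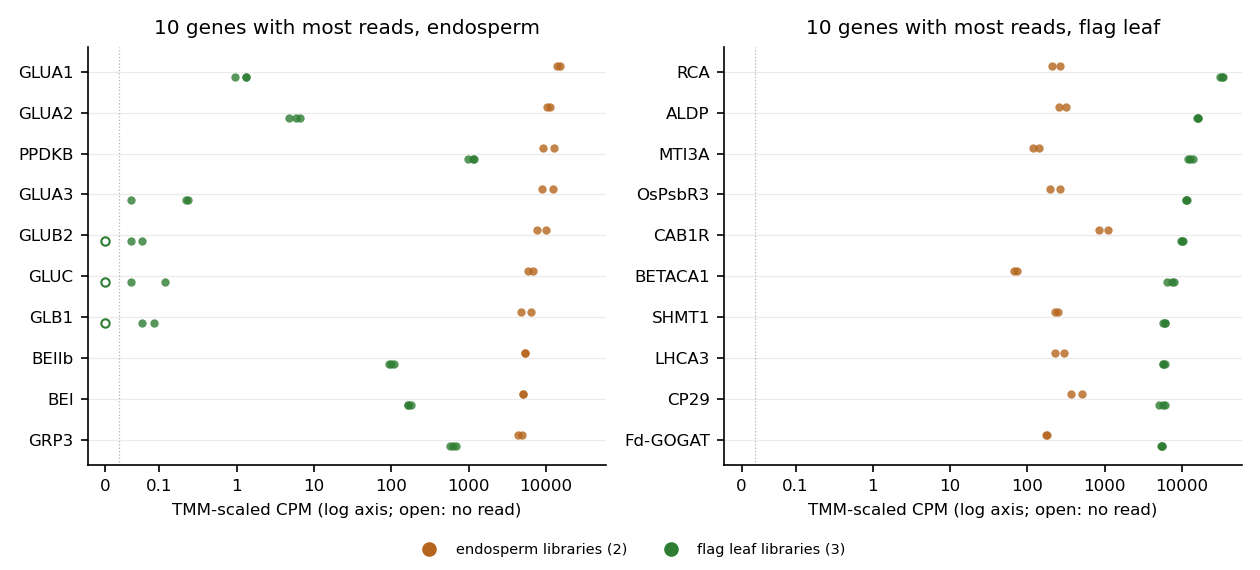
TMM-scaled CPM of the 10 genes with most reads in endosperm (left) and in flag leaf (right), on log axes with 0 at the left end; each point is a library and open circles mark libraries with no read. For every one of the 20 genes the endosperm and flag leaf libraries lie apart, by the widest distance for the glutelin GLUB2. Choosing the genes by their level in a tissue favours such a gap.

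Most starch synthesis genes were higher in the endosperm, and single isoforms of several enzymes were lower. Of its 26 genes, 18 were called higher in the endosperm and 3 lower, against 29.0% and 24.9% of all genes, and the median log2 fold change was 4.05. The list took 3.90% and 4.02% of endosperm reads, against 0.320%, 0.355% and 0.341% of flag leaf reads. Both endosperm libraries lay above all flag leaf libraries in this share.

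ADP-glucose pyrophosphorylase makes the glucose donor of starch from large (AGPL) and small (AGPS) subunits. AGPL2, the large subunit of the cytosolic enzyme of rice endosperm, had 2974 and 2965 CPM in the endosperm, against 76.6, 77.3 and 82.3 CPM in the flag leaf (5.24 ± 0.11, adjusted p = 1.87e-15). AGPS2, the matching small subunit gene, had 2452 and 2415 CPM in the endosperm, against 231, 226 and 219 CPM in the flag leaf (3.43 ± 0.10, adjusted p = 2.60e-13). The plastid subunits AGPS1 (1075 and 1107 CPM in the endosperm, against 35.4, 50.9 and 37.4 CPM in the flag leaf) and AGPL3 (653 and 796 CPM in the endosperm, against 27.5, 52.1 and 33.6 CPM in the flag leaf) were also called higher. AGPL1, another plastid large subunit, stood apart from the others at 140.4 and 136 CPM in the endosperm, against 171, 173 and 166 CPM in the flag leaf, with a log2 fold change of -0.30 ± 0.08 whose 95% interval of -0.47 to -0.14 lay within 2-fold. BT1-1 (OsBT1-1), which carries ADP-glucose into the amyloplast, had 3398 and 2778 CPM in the endosperm and no read in any flag leaf library. Set against a floor of 3 reads summed over the flag leaf libraries, that was at least 61187-fold higher.

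Among the starch synthases, the GBSS, SSII and SSIII classes each held a member called higher and a member called lower in the endosperm. GBSSI (Waxy, Os06g0133000), the granule-bound enzyme that makes amylose, had 3969 and 3557 CPM in the endosperm, against 6.19, 6.47 and 8.65 CPM in the flag leaf (9.03 ± 0.16, adjusted p = 3.25e-16). GBSSII, its relative in vegetative tissues, had 234 and 264 CPM in the endosperm, against 1111, 1360.0 and 1285 CPM in the flag leaf (-2.33 ± 0.12, adjusted p = 2.26e-09). The levels of this pair did not overlap between tissues, in opposite directions. SSIIa and SSIIb, which lengthen short amylopectin chains, divided in the same way. SSIIa had 650.0 and 627 CPM in the endosperm and a single read over the flag leaf libraries, a ratio of 37346 times (95% interval 6703 to 1475080.0), while SSIIb had 9.43 and 7.84 CPM in the endosperm, against 269, 273 and 278 CPM in the flag leaf (-4.97 ± 0.11, adjusted p = 3.63e-15). SSIIIa and SSIIIb, which make longer chains, made the last such pair. SSIIIa had 889.9 and 1040.3 CPM in the endosperm, against 1.88, 2.85 and 3.34 CPM in the flag leaf (8.46 ± 0.16), and SSIIIb had 148 and 178 CPM in the endosperm, against 754, 701 and 684 CPM in the flag leaf (-2.13 ± 0.11). The remaining synthases differed less. SSI (1.73) and SSIV3 (1.29) were called higher in the endosperm, SSIVa (-0.36) and SSIVb (0.80) stood at a like level, and SSIIc (0.91) was not called.

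The enzymes that branch and trim the glucan were called higher in the endosperm with a single exception. BEIIb, the branching enzyme of endosperm amylopectin, had 5454 and 5358 CPM in the endosperm, against 94.5, 101 and 107 CPM in the flag leaf (5.75 ± 0.13), and BEI had 5059 and 5044 CPM in the endosperm, against 167, 179 and 165 CPM in the flag leaf (4.89 ± 0.12). BEIIa, the branching enzyme also found in leaves, had 182 and 211 CPM in the endosperm and 98.9, 115 and 126 CPM in the flag leaf, and was not called (0.79 ± 0.10). ISA1, the isoamylase that trims misplaced branches, had 1343 and 1355 CPM in the endosperm, against 3.04, 2.61 and 1.97 CPM in the flag leaf (9.07 ± 0.14). Its partner ISA2 (4.69), the phosphoglucan debrancher ISA3 (1.41) and pullulanase PUL (6.91) rose too. The plastid starch phosphorylase PHO1 had 3290.5 and 3222 CPM in the endosperm, against 107, 135 and 118 CPM in the flag leaf (4.76 ± 0.12), whereas the cytosolic phosphorylase PHO2 had 119.7 and 145 CPM in the endosperm, against 406, 432 and 437 CPM in the flag leaf (-1.68 ± 0.10).

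**Figure D3:**
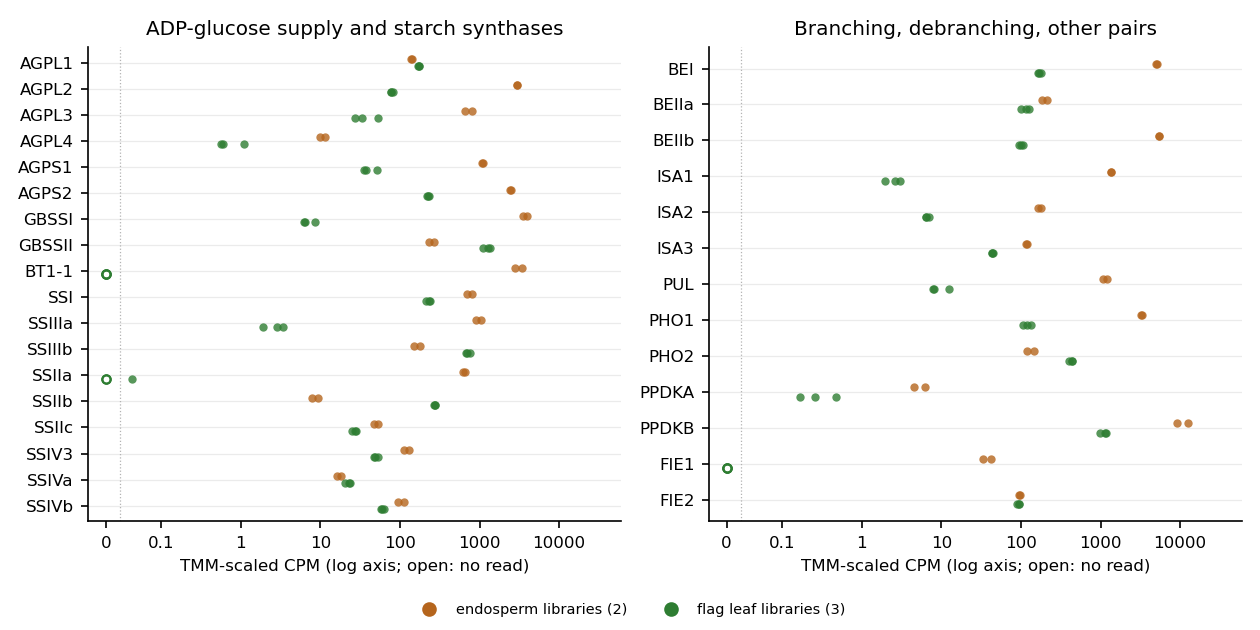
TMM-scaled CPM in each endosperm and flag leaf library of the starch synthesis isoforms, with the PPDK and FIE pairs, on log axes with 0 at the left end; open circles mark libraries with no read. The endosperm points lie to the right of the flag leaf points for GBSSI, SSIIa and SSIIIa and to the left for GBSSII, SSIIb and SSIIIb.

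Of 27 starch breakdown loci 16 were tested, with 5 called higher (31.2%, against 29.0% of all genes) and 6 lower (37.5%, against 24.9%), with a median log2 fold change of -1.03. GWD1, the dikinase that phosphorylates the granule before it is degraded, had 164 and 193 CPM in the endosperm, against 537, 550.5 and 554 CPM in the flag leaf (-1.62 ± 0.10). The beta-amylases BAMY1 (-3.29) and BAMY2 (-2.50) fell as well. DPE1, the plastid disproportionating enzyme that works on short glucans, went the other way with 112 and 103 CPM in the endosperm, against 9.62, 9.74 and 8.87 CPM in the flag leaf (3.52 ± 0.09).

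Storage protein genes took 9.96% and 8.19% of endosperm reads and at most 0.00104% of the reads of a flag leaf library. Of 56 loci in the list, 40 were tested, and 8 of the other 16 had no read at all. Of the 40, 30 were called higher, 0 lower and 26 were restricted to the endosperm, against 29.0%, 24.9% and 2.76% of all genes. No flag leaf read was found for 27 of the 40. Those 27 passed the expression filter through the endosperm alone and could not have been called lower. The median log2 fold change was 13.79, or 11.96 with genes of no leaf read set at the bound their reads allow, against 0.10 for all genes. GLUA3 had 12244 and 8954 CPM in the endosperm, against 0.221, 0.238 and 0.0428 CPM in the flag leaf, and was called higher (adjusted p = 3.74e-16). GLUB2 had 9987 and 7590.5 CPM in the endosperm and 2 reads over the flag leaf libraries, a ratio of 263082 times (95% interval 72829 to 2172350.0). GLB1, the alpha-globulin, had 6395 and 4838 CPM in the endosperm and 3 flag leaf reads, a ratio of 112127 times (95% interval 38368 to 543713). Every one of these exceeded its leaf level by several orders of magnitude in both libraries.

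The seed allergens RA16 and RAG2, of the alpha-amylase and trypsin inhibitor family, had no read in the flag leaf. RA16 had 2404 and 1965 CPM in the endosperm (at least 43290.2-fold higher) and RAG2 had 1269.8 and 1557 CPM (at least 26898-fold higher). Among prolamins, the alcohol-soluble storage proteins, PRO13A.2 had 1897 and 1269.5 CPM in the endosperm and no flag leaf read (at least 31970.1-fold higher), and PRO16.2 had 1558 and 741 CPM and 1 flag leaf read. The endosperm libraries differed from each other in this list: 34 of the 40 tested loci stood higher in replicate 1, against 12032 of all 24316 genes. All 10 tested loci that were not called had no flag leaf read, stood higher in endosperm replicate 1, and had adjusted p between 0.0641 and 0.184. The most abundant of these, chosen after its values were seen, was the 13 kDa prolamin gene PRO13A.4 with 1390.4 and 428 CPM in the endosperm (adjusted p = 0.112). With either endosperm replicate left out the remaining one has to be assumed to vary like the flag leaf libraries, so these counts are no firmer: 40 were called higher without replicate 1 and 41 without replicate 2. With all 5 libraries DESeq2 and limma-voom each called 40. The fit in replicate blocks, which used only libraries 1 and 2 of each tissue, also called 40. Prolamin and glutelin copies are near identical, so unique reads may be divided unevenly among them: GLUB1 had 0 reads and GLUB1A had 21, while GLUB2 had 328540.

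The regulators of starch and storage protein were mostly restricted to the endosperm. Of 10 in the list, 8 were called higher, 1 lower and 7 were restricted, against 29.0%, 24.9% and 2.76% of all genes. Restricted means at least 5 CPM in every endosperm library and under 0.1 CPM in every flag leaf library. The 7 had no flag leaf read, passed the expression filter through the endosperm alone and could not have been called lower. The median log2 fold change was 14.39, or 11.45 with genes of no leaf read at their bound. RPBF, a Dof factor that binds glutelin promoters, had 213 and 155 CPM in the endosperm and no flag leaf read (at least 3681-fold higher). The bZIP factor bZIP58, which acts on both starch and glutelin genes, had 142 and 108 CPM in the endosperm, against 0.221, 0.178 and 0.386 CPM in the flag leaf (8.80 ± 0.20, adjusted p = 7.30e-14). NF-YC12 had 513 and 449 CPM, NF-YB1 had 263 and 229 CPM, NAC20 had 361 and 305 CPM and NAC26 had 292 and 254 CPM in the endosperm, with no flag leaf read for any of them. RSR1, a known repressor of starch genes in rice seeds, was the one that fell, with 6.18 and 4.95 CPM in the endosperm, against 107, 125 and 119 CPM in the flag leaf (-4.37 ± 0.12, adjusted p = 6.22e-14). FLO2, whose loss gives a floury grain, had 644 and 743 CPM in the endosperm and 1517, 1408 and 1456 CPM in the flag leaf, with a log2 fold change of -1.08 ± 0.11 that was not called (adjusted p = 0.164). Without endosperm replicate 2 its adjusted p was 0.014, with the lone endosperm library assumed to vary like the flag leaf libraries.

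Sugar transport and cleavage genes also went in both directions within a family. Of 115 loci 86 were tested, with a median log2 fold change of -1.17. The test called 24 of them higher (27.9%, against 29.0% of all genes) and 42 lower (48.8%, against 24.9%). The list took 0.876% and 0.815% of endosperm reads, against 0.348% to 0.365% of flag leaf reads.

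Sucrose synthase cleaves sucrose to UDP-glucose and fructose. SUS3 had 3008 and 2443 CPM in the endosperm and 3 flag leaf reads, a ratio of 54044 times (95% interval 18493 to 262066). SUS2 had 1167 and 1004 CPM in the endosperm, against 214, 242 and 236 CPM in the flag leaf (2.23 ± 0.10, adjusted p = 7.93e-10). SUS1 (5.51) and SUS4 (2.79) were also called higher, while SUS5 and SUS6 were called higher at under 5 CPM in every library and RSUS7 had no read. No sucrose synthase was called lower. The cell wall invertases, which split sucrose outside the cell, went in both directions. CIN2 (GIF1), known for grain filling, had 246 and 177 CPM in the endosperm and 3 flag leaf reads, a ratio of 4249.9 times (95% interval 1454 to 20608). CIN1 had 0.778 and 0.619 CPM in the endosperm, against 96.1, 100.1 and 92.0 CPM in the flag leaf (-7.06 ± 0.15), and CIN5 had 0.366 and 0.344 CPM in the endosperm, against 39.7, 35.9 and 34.1 CPM in the flag leaf (-6.65 ± 0.20). Both endosperm libraries were high for CIN2 and near 0 for CIN1 and CIN5, with no overlap.

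SWEET proteins let sugars leave cells down their gradient. SWEET11, SWEET15, SUT1 and CIN2 also stand on the list of nucellus and pericarp markers, and the part of these maternal tissues in their endosperm levels was not tested. SWEET11 had 1228 and 1166 CPM in the endosperm and no flag leaf read (at least 23372-fold higher). SWEET15 had 67.1 and 84.1 CPM (at least 1436-fold higher) and SWEET11B had 35.7 and 30.3 CPM (at least 652-fold higher), again with no flag leaf read. SWEET6A was the other member called higher above 10 CPM, with 46.3 and 49.1 CPM in the endosperm, against 0.221, 0.297 and 0.471 CPM in the flag leaf (7.09 ± 0.18). SWEET14, often named together with SWEET11, had no endosperm read and 2.87, 3.74 and 2.96 CPM in the flag leaf (at least 38.3-fold lower). SWEET1B (-8.48), SWEET2B (-4.95) and SWEET3A (-6.34) also fell. SWEET4, whose maize relative imports hexose at the grain base, stood at a like level, with a mean of 53.7 ± 1.84 CPM in the endosperm and 35.4 ± 2.97 CPM in the flag leaf (SD, n = 2 and n = 3). SWEET13, a leaf sucrose exporter, had 8.75 and 18.6 CPM in the endosperm and 38.1, 42.7 and 43.5 CPM in the flag leaf; its call as lower (adjusted p = 0.0464) was lost without any one of the flag leaf replicates (adjusted p from 0.0823 to 0.112).

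The proton-coupled sucrose transporter SUT1, known to load the phloem and the grain, had 266 and 232 CPM in the endosperm, against 67.0, 64.0 and 68.6 CPM in the flag leaf (1.90 ± 0.08, adjusted p = 4.35e-09). SUT2, a tonoplast sucrose exporter, had 39.5 and 49.5 CPM in the endosperm, against 111, 111 and 110.2 CPM in the flag leaf (-1.32 ± 0.10). SUT4 (-0.62) stood at a like level. The hexose transporter gene MST4 had 2.93 and 1.31 CPM in the endosperm, against 412, 394 and 361 CPM in the flag leaf (-7.43 ± 0.20), and PLT1, of the polyol transporter subfamily, had 18.6 and 13.5 CPM in the endosperm, against 318, 364 and 419 CPM in the flag leaf (-4.50 ± 0.17).

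**Figure D4:**
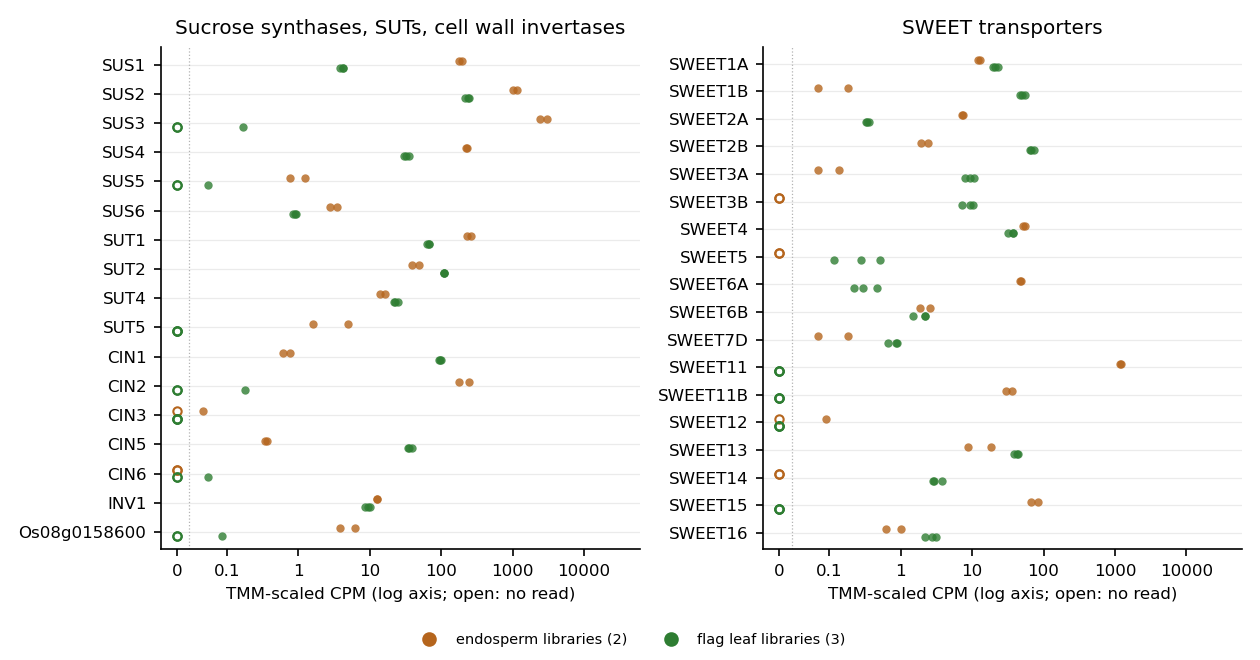
TMM-scaled CPM in each endosperm and flag leaf library of sucrose synthases, SUT transporters and cell wall invertases (left) and SWEET transporters (right), on log axes with 0 at the left end; open circles mark libraries with no read, and members with no read in all 5 libraries are not drawn. SUS3, CIN2, SWEET11 and SWEET15 have high endosperm points and flag leaf points at or near 0, and CIN1, SWEET1B and SWEET3B show the opposite.

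Of 81 glycolysis loci 74 were tested, with 23 called higher (31.1%) and 22 lower (29.7%), close to the 29.0% and 24.9% of all genes. Another 15 stood at a like level, against 18.6% of all genes. The cytosolic glyceraldehyde-3-phosphate dehydrogenase gene GAPC1 had 2062 and 1574 CPM in the endosperm, against 149.8, 143 and 147 CPM in the flag leaf (3.63 ± 0.12), and the enolase OsEE1 had 1471 and 1202 CPM in the endosperm, against 249.6, 247 and 246 CPM in the flag leaf (2.43 ± 0.10). The most abundant members called lower were GAPDH (221 and 180.2 CPM in the endosperm, against 3473, 3277 and 2853 CPM in the flag leaf), the phosphoglycerate kinase PGK3 (-3.28) and the aldolase YGDL1 (-4.76). Of 9 fermentation loci 6 were tested, with 3 called higher and 1 lower. ADH1, alcohol dehydrogenase, had 289 and 268 CPM in the endosperm, against 17.9, 22.7 and 21.5 CPM in the flag leaf (3.75 ± 0.10), and the pyruvate decarboxylase gene PDC2 averaged 270.0 ± 39.4 CPM in the endosperm, against 45.6 ± 1.13 CPM in the flag leaf (2.57 ± 0.09). Adh3 was the one called lower, with 1 endosperm read and 241 flag leaf reads.

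Of 21 genes for C4-type enzymes, which handle phosphoenolpyruvate, malate and pyruvate, 18 were tested. Among these 5 were called higher (27.8%, against 29.0% of all genes) and 8 lower (44.4%, against 24.9%), or 5 lower with scaling by total counts. PPDKA, the second dikinase gene, had 4.53 and 6.19 CPM in the endosperm, against 0.166, 0.475 and 0.257 CPM in the flag leaf (4.15 ± 0.35). The phosphoenolpyruvate carboxylase genes spread across both directions: PPC4 (-4.49), known for nitrogen assimilation in leaf chloroplasts, fell, the bacterial-type PPPCB (3.85) rose, and PEPC1 (0.17) stood at a like level.

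Photosynthesis genes were almost all lower in the endosperm. Of 63 tested photosystem and light-harvesting genes, of 78 in the list, 58 were called lower (92.1%, against 24.9% of all genes) and 3 higher (4.76%, against 29.0%). The median log2 fold change was -3.23. The tested and untested genes of the list together took 1.11% and 0.867% of endosperm reads, against 7.80% to 8.50% of flag leaf reads. CAB1R had 1109 and 857 CPM in the endosperm, against 10154, 10442 and 9784 CPM in the flag leaf (-3.36 ± 0.16), and stood among the 100 most abundant genes of both tissues. CAB2R, another light-harvesting protein of photosystem II, had 1080.0 and 776 CPM in the endosperm, against 3696, 3694 and 3743 CPM in the flag leaf, and was called lower (adjusted p = 6.81e-07). LHCB1.1, of the same type, went the other way with 315 and 225 CPM in the endosperm, against 40.2, 41.3 and 31.1 CPM in the flag leaf (2.85 ± 0.18, adjusted p = 1.22e-05). These photosynthesis reads were also more plentiful in endosperm replicate 1, which stood higher at 52 of the 63 genes, against 12032 of all 24316. Which cells of the sampled grain these reads came from was not tested.

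Carbon fixation and photorespiration followed, with 23 of 33 tested genes called lower (69.7%, against 24.9% of all genes) and 8 higher (24.2%, against 29.0%). The median log2 fold change was -3.70. The list took 0.250% and 0.224% of endosperm reads, against 4.36% to 4.69% of flag leaf reads. RBCS3, a small subunit of Rubisco, had 301 and 231 CPM in the endosperm, against 5397, 4532 and 4415 CPM in the flag leaf (-4.17 ± 0.17). RBCS1, the small subunit known from non-photosynthetic organs of rice, had 55.0 and 57.6 CPM in the endosperm, against 1.33, 1.43 and 1.24 CPM in the flag leaf (5.40 ± 0.13, adjusted p = 7.20e-15). Glycolate oxidases divided too: GLO1, the photorespiratory enzyme, had 57.1 and 44.1 CPM in the endosperm, against 2924, 3023 and 2781 CPM in the flag leaf (-5.84 ± 0.16), and GLO3 had 44.6 and 48.7 CPM in the endosperm, against 3.48, 4.16 and 3.51 CPM in the flag leaf (3.65 ± 0.12). For RBCS1 and GLO3 every endosperm library lay above every flag leaf library.

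Most genes of chlorophyll synthesis and of the plastid ribosome were lower as well. Counts here are set against 24.9% called lower and 29.0% called higher among all genes. Of 32 tested chlorophyll synthesis genes, 18 were called lower and 2 higher; CHLH, a subunit of magnesium chelatase, had 181 and 169 CPM in the endosperm, against 2887, 2675 and 2415 CPM in the flag leaf (-3.93 ± 0.14), and CAO1, which makes chlorophyll b, had 40.1 and 36.6 CPM in the endosperm, against 1010.5, 968 and 952 CPM in the flag leaf (-4.67 ± 0.12). Of 27 tested plastid ribosomal protein genes, 22 were called lower and 3 higher. GLK1, an activator of chloroplast genes, had 11.8 and 9.69 CPM in the endosperm, against 209, 239 and 215 CPM in the flag leaf (-4.35 ± 0.12). SIG1 and SIG6, sigma factors of the plastid RNA polymerase, fell by 5.19 and 5.49 on the log2 scale.

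Most genes for cytosolic ribosomal proteins were called higher in the endosperm in the main fit. Of 149 tested genes for cytosolic ribosomal proteins, 105 were called higher (70.5%, against 29.0% of all genes) and 4 lower (2.68%, against 24.9%). The median log2 fold change was 1.32. The list took 2.58% and 2.24% of endosperm reads, against 0.698% to 0.748% of flag leaf reads. RPL2 had 597 and 486 CPM in the endosperm, against 172, 174 and 159 CPM in the flag leaf (1.69 ± 0.10). The number called higher changed with the setting. It reached 126 in an alternative, and at its lowest, with 1 library left out, it no longer took in most of the list. In the main fit 139 genes had a positive and 10 a negative change. The list stood higher in endosperm replicate 1 at 135 of 149 genes, against 12032 of all 24316. Of 67 tested translation factors, 15 were called higher (22.4%, against 29.0% of all genes), 8 lower (11.9%, against 24.9%) and 31 stood at a like level. Among the lower ones were the chloroplast elongation factor EFTU (-3.43) and the initiation factor Os-eIF-1 (-1.41). Of 54 tested proteasome subunits, 37 stood at a like level, against 18.6% of all genes. With scaling by total counts, 26 translation factors and 18 proteasome subunits were called higher, against 15 and 9 with TMM.

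Chaperones of the endoplasmic reticulum, where storage proteins fold, rose in part. Of 33 tested, 15 were called higher, 2 lower and 10 stood at a like level, against 29.0%, 24.9% and 18.6% of all genes. The list took 1.08% to 1.10% of endosperm reads, against 0.243% to 0.262% of flag leaf reads. PDIL1-1, a protein disulfide isomerase known to help glutelin fold, had 2207 and 1744 CPM in the endosperm, against 107, 109 and 103 CPM in the flag leaf (4.21 ± 0.12, adjusted p = 5.57e-14). BIP1, the luminal HSP70, had 1797 and 1665 CPM in the endosperm, against 263, 241 and 266 CPM in the flag leaf (2.75 ± 0.10), and the calreticulin CRO1 had 1054 and 1005 CPM in the endosperm, against 213, 201 and 219 CPM in the flag leaf (2.29 ± 0.09). CRT3, another calreticulin, fell, with 52.5 and 45.7 CPM in the endosperm, against 426, 354 and 370.2 CPM in the flag leaf (-2.96 ± 0.11).

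Of 73 tested heat shock protein genes, 34 were called higher, 9 lower and 15 stood at a like level. Over all genes these shares were 29.0%, 24.9% and 18.6%. HSP82A had 1200.0 and 1201 CPM in the endosperm, against 429, 392 and 463 CPM in the flag leaf (1.49 ± 0.10). The small cytosolic HSP17.9B had 7.37 and 3.78 CPM in the endosperm, against 112, 104 and 99.3 CPM in the flag leaf (-4.17 ± 0.21). HSP70 was among the 100 most abundant genes of both tissues, with 3594 and 3467 CPM in the endosperm and 1702, 1982 and 2171 CPM in the flag leaf, and was not called (0.86 ± 0.12). Of 22 tested heat stress transcription factors, 9 were called higher (40.9%, against 29.0% of all genes) and 4 lower (18.2%, against 24.9%). Their median log2 fold change of 0.77 turned to -0.54 under a filter of 5 CPM in 2 libraries. HSFA2C had 137 and 140.1 CPM in the endosperm, against 32.6, 30.4 and 33.1 CPM in the flag leaf (2.11 ± 0.08), and HSFA2D had 22.8 and 16.4 CPM in the endosperm, against 402, 364 and 404 CPM in the flag leaf (-4.30 ± 0.14).

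Most genes of the cell cycle, the core histones, the tubulins and the cell wall lists were higher in the endosperm. For comparison, 29.0% of all genes were called higher and 24.9% lower. No flag leaf read was found for 10 tested cell cycle genes, 1 core histone gene and 8 cell wall genes. These passed the expression filter through the endosperm alone and could not have been called lower. Of 90 tested genes of the cell cycle and DNA replication, 55 were called higher and 2 lower, with a median log2 fold change of 2.18. MCM2, a subunit of the replicative helicase, had 58.8 and 66.1 CPM in the endosperm, against 4.09, 5.52 and 5.57 CPM in the flag leaf (3.62 ± 0.12), and PCNA, the sliding clamp, had 55.8 and 53.8 CPM in the endosperm, against 14.3, 15.0 and 17.4 CPM in the flag leaf (1.81 ± 0.10). Of 46 tested core histone genes, 27 were called higher and 2 lower. Of 13 tested tubulins, 11 were called higher and 2 lower: TUBA3 had 2748 and 3131 CPM in the endosperm, against 107, 98.1 and 107 CPM in the flag leaf (4.82 ± 0.12, adjusted p = 7.32e-15), and TUB4 had 496 and 589.5 CPM in the endosperm, against 3.48, 4.10 and 4.54 CPM in the flag leaf (7.06 ± 0.12). Of 62 tested cellulose synthases, related synthases and expansins, 46 were called higher and 5 lower. EXPB4, a beta-expansin that loosens grass cell walls, had 587 and 571 CPM in the endosperm, against 0.111, 0.119 and 0 CPM in the flag leaf (12.91). CESA1, of the primary wall, had 462 and 575 CPM in the endosperm, against 19.6, 20.3 and 20.2 CPM in the flag leaf (4.69 ± 0.11). The members called lower included the cellulose synthase-like genes CSLE6 (-4.26) and CSLH1 (-2.88).

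Chromatin genes differed by a few members. Of 15 Polycomb PRC2 and DNA methylation genes, 6 were called higher, 0 lower and 8 stood at a like level. The shares over all genes were 29.0%, 24.9% and 18.6%. FIE1, a PRC2 subunit known as an imprinted endosperm gene, had 42.3 and 33.7 CPM in the endosperm and no flag leaf read (at least 754-fold higher). Its paralog FIE2 had 93.6 and 97.8 CPM in the endosperm and 94.6, 89.8 and 93.4 CPM in the flag leaf, and its log2 fold change of 0.05 ± 0.08 had an interval of -0.12 to 0.21. MET1B, a maintenance DNA methyltransferase, had 250.0 and 252 CPM in the endosperm, against 1.22, 0.713 and 1.41 CPM in the flag leaf (7.77 ± 0.13, adjusted p = 3.06e-16). ROS1A, a DNA demethylase known for its part in endosperm development, had 281 and 312 CPM in the endosperm, against 129.9, 119 and 123 CPM in the flag leaf (1.26 ± 0.08).

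Lipid and inhibitor genes were among the lists with most endosperm-restricted members. Of 61 tested lipid transfer and oil body genes, 41 were called higher, 6 lower and 16 were endosperm-restricted. Among all genes these shares were 29.0%, 24.9% and 2.76%. The lipid transfer protein gene OsLTPL36 had 1112 and 1057 CPM in the endosperm and 2 flag leaf reads, a ratio of 31765 times (95% interval 8793 to 262290.0). OLE16 and OLE18, oleosins that coat the oil bodies of aleurone and embryo, had no flag leaf read. In the endosperm OLE16 had 381 and 425 CPM, and OLE18 had 283 and 319.9 CPM. Of 47 loci for inhibitors of pectin methylesterase and invertase, 20 were tested, with 17 called higher, 0 lower and 9 restricted. PMEI14 had 486 and 592 CPM and INVINH3 had 198 and 239.7 CPM in the endosperm, with no flag leaf read. Of 31 loci for trypsin and alpha-amylase inhibitors, 17 were tested, with 12 called higher and 2 lower. No flag leaf read was found for 19 tested lipid genes, 10 tested pectin methylesterase and invertase inhibitors, and 9 tested trypsin and alpha-amylase inhibitors. Such genes passed the expression filter through the endosperm alone and could not have been called lower. Under a filter of 5 CPM in 2 libraries, 11 of the pectin methylesterase and invertase inhibitors and 7 of the trypsin and alpha-amylase inhibitors were called higher. RASI, an alpha-amylase and subtilisin inhibitor, had 70.8 and 76.9 CPM in the endosperm and no flag leaf read.

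**Figure D5:**
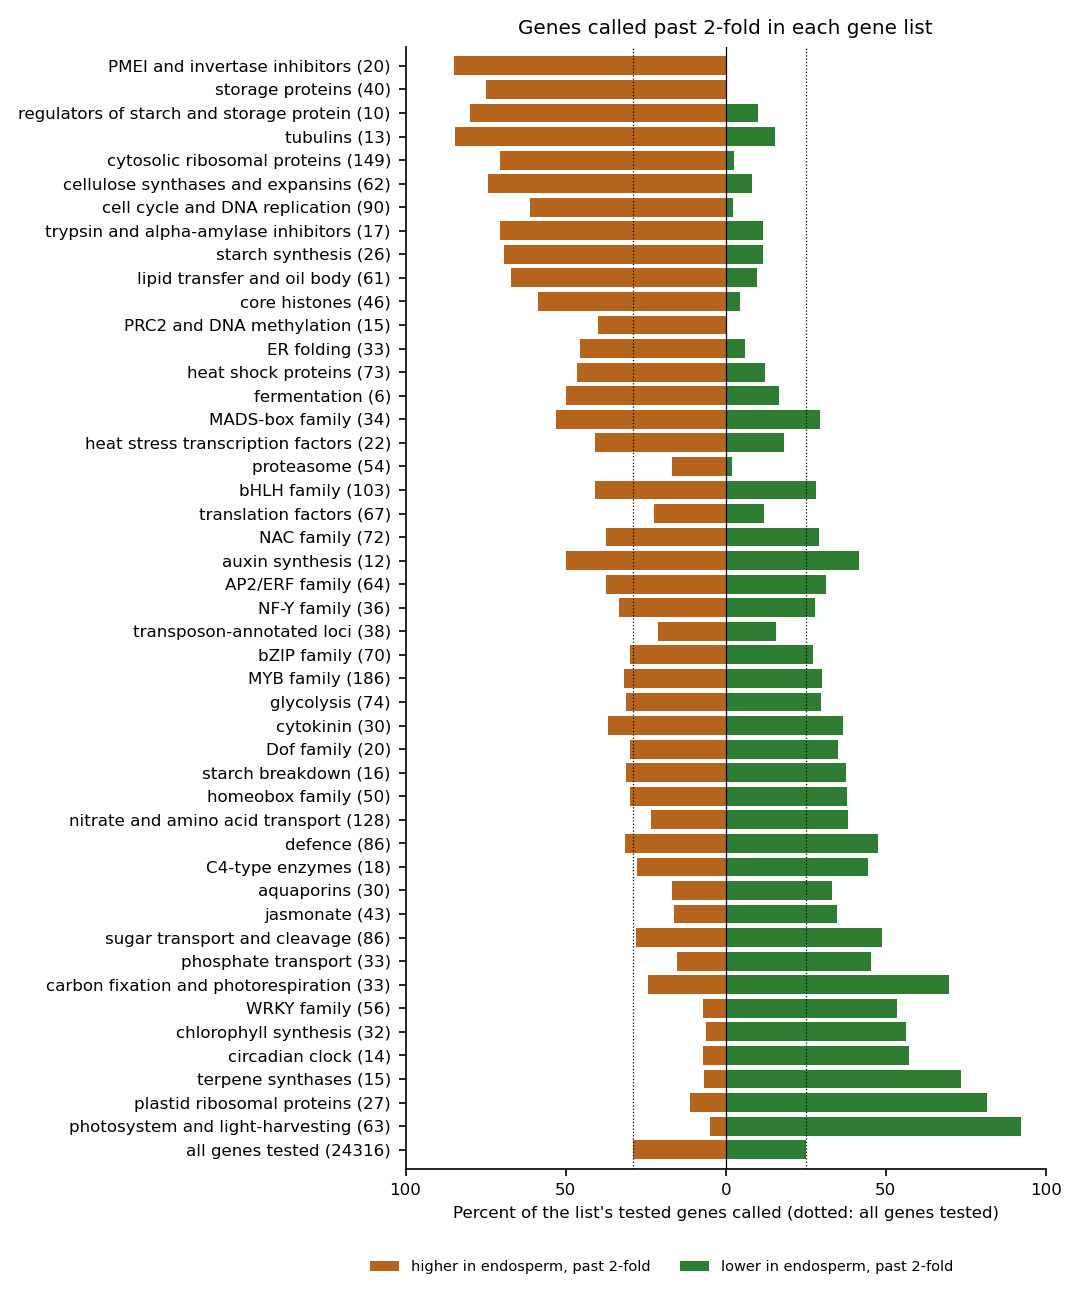
Percent of each list's tested genes (number in brackets) called past 2-fold higher in the endosperm (to the left) or lower in the endosperm (to the right); dotted lines mark the 29.0% and 24.9% of all 24316 genes tested. Most storage protein, tubulin and pectin methylesterase inhibitor (PMEI) genes are called higher, and most photosystem and plastid ribosomal protein genes are called lower.

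Transporters of nitrogen and phosphate were called lower more often than higher. Of 128 tested nitrate, peptide and amino acid transporters, 30 were called higher (23.4%, against 29.0% of all genes) and 49 lower (38.3%, against 24.9%). OsPTR3 had 4 endosperm reads and 147, 193 and 160.1 CPM in the flag leaf (-10.48), and NRT1.7 had 33.2 and 30.2 CPM in the endosperm, against 0.276, 0.475 and 0.386 CPM in the flag leaf (6.37 ± 0.19). Of 33 tested phosphate transport genes, 5 were called higher (15.2%) and 15 lower (45.5%). PT21 had 7.28 and 6.46 CPM in the endosperm, against 708, 706 and 690.1 CPM in the flag leaf (-6.66 ± 0.13), and PHO1;2, a phosphate exporter known from grain filling, had 67.5 and 81.2 CPM in the endosperm, against 5.69, 9.26 and 11.4 CPM in the flag leaf (3.06 ± 0.25). Of 30 tested aquaporins, 5 were called higher (16.7%) and 10 lower (33.3%). Even so, 15 had a positive and 15 a negative change, with a median of -0.04, and tonoplast members lay at both ends. TIP1;2 had 3.98 and 4.81 CPM in the endosperm, against 1509, 1804 and 1615 CPM in the flag leaf (-8.56 ± 0.18), while TIP3;1, of the seed type, had 184 and 133 CPM in the endosperm and no flag leaf read (at least 3173-fold higher).

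Transcription factors as a class were called in both directions. Of 757 tested genes annotated as transcription factors, 263 were called higher (34.7%) and 237 lower (31.3%), against 29.0% and 24.9% of all genes, with a median log2 fold change of 0.09. Among the 757, 48 were restricted to the endosperm and 6 to the leaf. Over all 24316 genes tested, 671 (2.76%) were endosperm-restricted and 253 (1.04%) leaf-restricted. NAC23, a sugar-responsive NAC factor, had 839.8 and 646 CPM in the endosperm, against 0, 0.0594 and 0.214 CPM in the flag leaf (12.73, adjusted p = 7.55e-13). NAC25 had 666 and 681 CPM and HAP5K, a subunit of the NF-Y complex, had 367 and 307 CPM in the endosperm, with no flag leaf read for either. MADS8 and MADS7, known for floral organ identity, had no flag leaf read. In the endosperm MADS8 had 362 and 346 CPM, and MADS7 had 309 and 310.4 CPM. MADS58 (10.03) and MADS3 (8.06), of the class that specifies stamens and carpels, were called higher. MADS14, a flowering gene of the APETALA1 type, averaged 27.0 ± 1.51 CPM in the endosperm, against 329 ± 19.4 CPM in the flag leaf (-3.60 ± 0.10). In the MADS-box family as a whole 18 of 34 tested genes were called higher (52.9%) and 10 lower (29.4%).

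The transcription factors most abundant in the leaf and at least 16-fold lower in the endosperm began with ASR2, a protein of the abscisic acid, stress and ripening family. ASR2 had 0.412 and 0 CPM in the endosperm, against 1363, 1519 and 1771 CPM in the flag leaf (-12.58, adjusted p = 2.65e-12). STO, a B-box factor of light responses, had 46.5 and 39.5 CPM in the endosperm, against 1005, 1096 and 1126 CPM in the flag leaf (-4.64 ± 0.13). WRKY factors, many of them regulators of defence, were mostly lower: of 56 tested, 30 were called lower and 4 higher, and WRKY45 had 7.37 and 3.99 CPM in the endosperm, against 178, 131 and 152 CPM in the flag leaf (-4.70 ± 0.27). WRKY17 was an exception with 27.6 and 25.2 CPM in the endosperm and no flag leaf read. Counts in the other large families are set against 29.0% higher and 24.9% lower among all genes, and several families lay close to these shares. Of 72 tested NAC genes, 27 were called higher and 21 lower. The bHLH family had 42 called higher and 29 lower of 103 tested, and the MYB family had 59 higher and 56 lower of 186 (31.7% and 30.1%). The AP2/ERF family had 24 higher and 20 lower of 64, and the bZIP family had 21 higher and 19 lower of 70 (30.0% and 27.1%). The homeobox family had 15 higher and 19 lower of 50, the NF-Y family 12 higher and 10 lower of 36, and the Dof family 6 higher and 7 lower of 20. Under a filter of 5 CPM in 2 libraries, 15 NAC, 26 bHLH, 38 MYB and 12 AP2/ERF genes were called higher.

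Clock, hormone and defence genes were mixed, with the leaf the higher tissue for many of them. Their counts are set against 29.0% called higher and 24.9% called lower among all genes. Of 14 clock genes, 8 were called lower and 1 higher: CCA1, expressed around dawn, had 106 and 105 CPM in the endosperm, against 1036, 959 and 1022 CPM in the flag leaf (-3.25 ± 0.11), and ELF3.2 had 47.0 and 46.3 CPM in the endosperm, against 8.51, 8.55 and 9.30 CPM in the flag leaf (2.40 ± 0.10). The sampling hour given in the labels is that of the spikelets. The hour for the flag leaves is not given, so for clock genes a difference in hour cannot be told apart from the tissue. Of 43 tested jasmonate genes, 15 were called lower (34.9%) and 7 higher (16.3%). The lipoxygenase LOX1 had 2.43 and 2.75 CPM in the endosperm, against 618, 806 and 734 CPM in the flag leaf (-8.13 ± 0.18). Of 30 tested cytokinin genes, 11 were called higher and 11 lower (36.7% each), or 5 higher under a filter of 5 CPM in 2 libraries. The activating enzyme LOG1 had 4.90 and 3.30 CPM in the endosperm, against 461, 466 and 475 CPM in the flag leaf (-6.79 ± 0.15), and the response regulator OsPRR12 had 233 and 281 CPM in the endosperm and no flag leaf read. Of 12 tested auxin synthesis genes, 6 were called higher and 5 lower. YUCCA12, a flavin monooxygenase of the final step, had 39.7 and 38.7 CPM in the endosperm and no flag leaf read (at least 763-fold higher). YUCCA9 had 94.4 and 66.0 CPM in the endosperm, against 19.1, 18.6 and 9.73 CPM in the flag leaf (2.37 ± 0.37), and its call was lost without endosperm replicate 1 (adjusted p = 0.0974, the lone endosperm library assumed to vary like the flag leaf libraries). Of 86 tested defence genes, 27 were called higher (31.4%, close to the share over all genes) and 41 lower (47.7%), or 27 lower under the 5 CPM filter. PR10A had 87.8 and 106 CPM in the endosperm, against 781, 599 and 563 CPM in the flag leaf (-2.75 ± 0.16). The chitinase-like xylanase inhibitor riceXIP had 274 and 222 CPM in the endosperm, against 0.0553, 0.178 and 0.0857 CPM in the flag leaf (11.14).

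Genes restricted to the endosperm outnumbered those restricted to the leaf. By the rule of at least 5 CPM in every library of a tissue and under 0.1 CPM in every library of the other, 671 genes were endosperm-restricted (2.76% of those tested) and 253 were leaf-restricted (1.04%). No read fell in any flag leaf library for 454 of the 671, and no read in either endosperm library for 138 of the 253. With a floor of 10 CPM in place of 5, 154 genes were leaf-restricted. The endosperm-restricted genes took 8.58% to 9.47% of endosperm reads and the leaf-restricted genes 0.902% to 0.945% of flag leaf reads. Their median levels were alike, 18.8 CPM and 16.5 CPM, but 30 of the endosperm set and 2 of the leaf set exceeded 500 CPM. In the green manure libraries of the same series, which did not enter the rule, 566 of the 671 and 184 of the 253 met it again.

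The most abundant endosperm-restricted genes outside storage and starch included GLP8-2, a germin-like protein, with 3821 and 4637 CPM in the endosperm and 1 flag leaf read, and MLP423, of the major latex protein family, with 1829 and 1621 CPM and no flag leaf read (at least 33912-fold higher). In the leaf, the restricted genes included terpene synthases. TPS29 had 2 endosperm reads and 1480.1, 1336 and 1375 CPM in the flag leaf, and OsTPS10 had no endosperm read and 116 ± 16.6 CPM in the flag leaf (mean ± SD, n = 3, at least 1381-fold lower). Of 15 tested terpene synthases, 11 were called lower (73.3%, against 24.9% of all genes) and 1 higher (6.67%, against 29.0%). Under a filter of 5 CPM in 2 libraries, 7 were called lower. Other leaf-restricted genes were DX1, annotated as a green tissue gene, with 1 endosperm read and 407, 618 and 656 CPM in the flag leaf, the halide methyltransferase OsHOL1 with no endosperm read and 139.5, 177 and 193 CPM (at least 2081-fold lower), and MYB48 with no endosperm read and 110.1, 131 and 150.1 CPM (at least 1604-fold lower).

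Many genes were expressed at a like level in both tissues. A gene was taken to stand at a like level where it had at least 10 CPM in all 5 libraries and the 95% interval of its log2 fold change lay within 2-fold on either side. Of the 8343 genes with at least 10 CPM in all 5 libraries, 4511 met this (18.6% of all genes tested), 1048 were called higher and 1583 lower. The cytosolic dehydrogenase gene GAPC had 1270.5 and 1147 CPM in the endosperm and 1249.5, 1235 and 1215 CPM in the flag leaf (-0.03 ± 0.10, interval -0.25 to 0.19). The ADP-ribosylation factor gene ARF had 699 and 677 CPM in the endosperm and 689, 731 and 749 CPM in the flag leaf (-0.07 ± 0.09). GRP162, a glycine-rich partner of a fertility restorer, had 3652 and 2306 CPM in the endosperm and 2022, 2159 and 1811 CPM in the flag leaf (0.58 ± 0.17), with the endosperm libraries farther apart than the tissues. The other 7 of the 10 most abundant such genes were EULD1A, Ubi1, RUBQ2, RAN2, GLYI-11, Dhr6 and HSP82B.

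At the top of the ranking little was shared. Only 11 genes stood among the 100 most abundant of both tissues. The 11 were CAB1R, CAB2R, LHCB2.1, PPDKB, FLO2, HSP70, GRP162, EULD1A, Ubi1, GAPC and the cyclophilin LRT2. Of these, PPDKB was called higher in the endosperm and the light-harvesting genes CAB1R, CAB2R and LHCB2.1 were called lower.

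Genes often used as references in rice qPCR did not all stand at a like level. Of 14, 5 stood at a like level, 7 were called higher in the endosperm and 0 lower, against 18.6%, 29.0% and 24.9% of all genes. The 5 include SPL33, which is annotated only as similar to elongation factor 1 alpha. The TIP41-like gene Os03g0760600 had 28.5 and 28.7 CPM in the endosperm and 28.0, 25.8 and 28.3 CPM in the flag leaf (0.06 ± 0.09, interval -0.14 to 0.26). ACT1, an actin gene, had 168 and 182 CPM in the endosperm, against 27.6, 28.9 and 27.3 CPM in the flag leaf (2.65 ± 0.08, adjusted p = 1.67e-12). The elongation factor genes RFA1 (1.35) and RFA4 (1.34) were called higher, while the calls of RFA3 (1.22) and UBQ5 (1.20) were lost without endosperm replicate 1 (adjusted p = 0.368 and 0.359, with the same assumption about a lone endosperm library) or without flag leaf replicate 3 (adjusted p = 0.0568 and 0.0628). The 4 RFA genes are near-identical copies, so their unique counts are uncertain one by one.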

How the data were processed

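The values deposited by the authors were raw counts: per the labels, exon reads that mapped uniquely, summed by gene, with a table for each tissue over the same 37727 loci. The submitters' processing notes name the build IRGSP-1.0. Which aligner and counting tool were used is not given in the sources used here. Symbols came from the deposited tables, and no sequence or coordinate was used. The tables were joined by gene identifier, and the 5 chemical fertilizer libraries were kept. The green manure libraries entered only an alternative fit and the repeat of the restricted classes.

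Counts were analysed with edgeR 4.0.16 in R 4.3.3: genes passed filterByExpr by tissue, libraries were scaled by TMM (factors 1.14 and 1.19 for endosperm, and 0.894, 0.909 and 0.904 for flag leaf), and a robust quasi-likelihood model of tissue was fitted. Genes were tested by glmQLFTest and, against a change of 2-fold, by glmTreat, with Benjamini-Hochberg adjustment over the 24316 genes tested. The standard error is the size of the log2 fold change over the root of the quasi-likelihood F statistic, and intervals were built from it. For a gene with no read in a tissue, the fold was taken against 3 reads summed over that tissue's libraries (0.0824 CPM in endosperm, 0.0515 CPM in flag leaf); with 1 to 3 reads, the ratio has an exact 95% Poisson interval, which covers counting error only. Alternatives used DESeq2 1.42.0 and limma 3.58.1. Tables and figures used Python 3.11.15 with pandas 2.3.3, numpy 2.4.6 and matplotlib 3.10.9. The fitting code was tested on simulated data.

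The gene lists, markers and naming rule were chosen with earlier results of these data known. The rule named the 10 genes with most reads per tissue, the 10 largest changes each way above 50 CPM with a symbol or an informative description, every isoform of the families described, up to 4 members of highest level per list and up to 3 called against its majority, the 10 most abundant genes at a like level, all reference genes, transcription factors by level (10 for endosperm, 5 for leaf) and the markers. The values of 1 named gene are not reported here. Lists are described by counts and medians, with no test. Replicates differed by more than sampling noise (chi-square per degree of freedom of 5.02 to 9.26), so each was counted. Unique counts leave near-identical copies (glutelins, prolamins, histones, tubulins) uncertain.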

Additional observations from a re-analysis of the deposited data

How the results depend on the processing

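Counts of all genes kept their direction and most kept their size. With each library left out in turn, 19217 to 20010 genes were called, 12224 to 12913 past 2-fold (6235 to 6950 higher, 5862 to 6062 lower), and 4296 to 4493 stood at a like level; without an endosperm library the lone one is assumed to vary like the flag leaf. DESeq2 called 11326 past 2-fold, limma-voom 12316 and the fit of all 10 libraries 13394. Under a filter of 5 CPM in 2 libraries, which left 17584 genes to test, 4646 were called past 2-fold higher; under it the counts fell to 27 lower for defence and 7 lower for terpene synthases, and to 15 NAC, 12 AP2/ERF, 26 bHLH, 38 MYB, 11 pectin methylesterase and invertase inhibitor, 7 trypsin and alpha-amylase inhibitor, 4 transposon-annotated and 5 cytokinin genes higher, and the median of heat stress transcription factors turned to -0.54. Scaling by total counts moved the median of all genes by 0.37 (log2) and upper-quartile scaling by 0.21. With total counts, 18 proteasome genes and 26 translation factors were called higher and 5 C4-type genes lower; with upper-quartile scaling 24 translation factors were called higher, and with DESeq2 5 proteasome genes. The cause of these differences beyond the genes tested was not tested. Leaf-restricted genes numbered 138 when no read was allowed in the endosperm and 154 with a floor of 10 CPM. With the replicate number as a block (libraries 1 and 2 of each tissue), 19720 genes were called and 12670 past 2-fold. Deviations of libraries numbered alike had a correlation of -0.037. With 2 libraries per tissue and different organs, this value cannot show whether samples numbered alike share a plant. Of 6367 comparisons of 426 named genes with an alternative, 6213 left the call as it was, 127 lost it, 27 gained it and 0 turned the direction.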
